A study of Mus musculus with 12 samples.

Results

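The genes described here encode 10 parts of the vacuolar proton pump (V-ATPase) that were counted in the mouse Leydig tumour line mLTC-1. They are Atp6v1a, Atp6v1e1, Atp6v1f and Atp6v1g1 of the V1 sector, Atp6v0b, Atp6v0c, Atp6v0d1 and Atp6v0e of the V0 sector, and the accessory proteins Atp6ap1 and Atp6ap2. They were found by symbol among the 26214 symbols of the count table, and all 10 had counts. After a filter on low counts, 9 of the 10 were tested among 2614 genes, and Atp6ap2 was not. The 10 genes were chosen from the values of these same libraries, with Atp6v1f at their head. Their differences between MSNBA and control are therefore given as a description and support nothing about the pump as a whole. The choice of these genes has no threshold.

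The series asks how Leydig cells respond to MSNBA, which it calls a Glut5 inhibitor, Glut5 being a sugar carrier of the cell membrane that takes up fructose. Leydig cells make the androgens of the testis, and mLTC-1 is an immortalized line grown in medium with serum. The control group was 6 libraries of mLTC-1 given the DMSO vehicle, and the MSNBA group was 6 libraries of the same line given 100 µM MSNBA, both for 24 h before polyA RNA was taken. Both groups are the same line without a genetic change, so the libraries differ by the compound and by whatever differed between cultures or preparations. Nothing in the labels says that the replicates came from separate cultures, and p-values then measure only the spread between these libraries, which may be technical.

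The V-ATPase is a rotary motor that uses ATP to pump protons into lysosomes, endosomes, the Golgi and secretory vesicles. Its V1 sector in the cytosol hydrolyses ATP, and its V0 sector in the membrane carries protons on a turning ring. The acid it makes is needed for receptor recycling, for the digestion of proteins and lipoproteins in lysosomes, and for signalling of nutrients from the lysosome surface. In Leydig cells, lysosomes and endosomes are part of the route by which lipoprotein cholesterol reaches steroid synthesis.

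Library totals ran from 59113 to 657251 counts, and the geometric mean total of MSNBA libraries was 2.14 times that of controls (p = 0.0606, exact permutation test, two-sided). The tested genes held 79.2% of all counts. Their median log2 fold change, MSNBA against control, was -0.0082, and 48.5% lay above 0. All 7 Leydig markers were tested, and their summed level ran from 7490 to 10905 counts per 1000000 of the library (CPM) in controls and from 7569 to 9388 CPM in MSNBA libraries. Markers of cell types rich in special pump isoforms had few counts: the 4 osteoclast markers summed to 24 and 39, the 7 macrophage markers to 13 and 17, and the 4 markers of renal intercalated cells to 2 and 1, in control and MSNBA libraries respectively. Of the osteoclast markers, Ocstamp held 43 counts, a pooled 32.4 CPM in controls and 13.1 CPM in MSNBA libraries, which is in the range of the subunit a genes given later. Ctsk and Acp5 had 0 counts in controls and 2 and 11 in MSNBA libraries. Sertoli cell (10 and 17 counts), germ cell (6 and 18), endothelial (7 and 11) and fibroblast markers (36 and 58) were likewise too low to be tested. The gene of the described target, Slc2a5 (Glut5), had 1 count in each group, so that it checks no label.

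Some genes of the pump carry CACGTG, the core of the CLEAR element through which transcription factors of the TFEB family act on lysosomal genes. RefSeq promoter windows on GRCm38.p6, from 250 bases before to 50 after a gene's start, were present for 9 of the 10 genes, all but Atp6v1g1. CACGTG, which reads the same on both strands, was in the windows of 4 of those 9 genes, against 8.09% of 27025 genes with a window and 14.2% of the 2158 tested genes with one. Its longer form TCACGTGA was in 3 of the 9, against 1.12% of all and 2.92% of tested genes. The full CLEAR palindrome, which is TCACGTGA with a G before it and a C after it, was in 0 of the 9, against 0.370% of all and 1.25% of tested genes. Of the other pump subunit genes, 10 had a window, and 0 of these held CACGTG. The matches are shown because they are the feature that some of the pump genes share in sequence. Each run is 5′ to 3′ on the gene's strand, with CACGTG or, where present, TCACGTGA in capitals.
Atp6v0b, chr4:117887322-117887385, minus strand: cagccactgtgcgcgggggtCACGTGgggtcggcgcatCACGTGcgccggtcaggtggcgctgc
Atp6v0d1, chr8:105566050-105566079, minus strand: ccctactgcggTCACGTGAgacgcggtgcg
Atp6v1a, chr16:44139373-44139402, minus strand: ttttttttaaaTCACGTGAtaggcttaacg
Atp6v0e, chr17:26676387-26676416, plus strand: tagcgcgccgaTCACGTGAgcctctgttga
The Atp6v0b window held 2 copies, which begin 36 and 18 bases before the annotated start. In Atp6v0d1 the core spans the RefSeq start itself, and in Atp6v0e it begins at the fourth base of the transcript, where the GENCODE vM21 annotation has a UTR. The Atp6v1a match lies inside the annotated gene, outside any exon, since the RefSeq start used for that window is not the most upstream. The windows of Atp6v1f, Atp6v0c, Atp6v1e1, Atp6ap1 and Atp6ap2 held no CACGTG, which says only that these letters are not in those bases. A match is a description of the sequence, and no binding was measured here. The genes with a match included the 1 with a fold change below 0 (Atp6v0d1) and 3 above it, as described next.

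Atp6v1f encodes subunit F, a part of the central stalk that turns inside V1, and lies at chr6:29467783-29470509 on the plus strand. Its normalized level in controls had a lowest value of 258 CPM, a median of 338 and a highest of 440. In MSNBA libraries the lowest was 429, the median 538 and the highest 619 CPM. In 5 of 6 MSNBA libraries the level was above every control. The exception was MSNBA 4, the shallowest MSNBA library, at 429 CPM, which lay under control 1 at 433 and control 3 at 440 CPM. The means were 350 ± 78.1 and 534 ± 66.0 CPM (SD, n = 6 each), and the fitted log2 fold change was 0.55 (SE 0.14, 95% interval from 0.27 to 0.84), a 1.47-fold difference. It was the 8th of 2614 genes by p, with an edgeR Benjamini-Hochberg adjusted p of 0.101. Depth moved with this gene: with the log2 library total in the model, its log2 fold change was 0.44 (SE 0.16, edgeR adjusted p = 0.401). Without controls 2 and 4, which an earlier look at these data had found high in stress genes, it was 0.45 (SE 0.15). The part of depth in the difference was not tested beyond these fits. In bulk RNA, more cells with a transcript and more transcript per cell cannot be told apart.

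The other genes of V1 lay closer together. Atp6v1e1, subunit E of the peripheral stalks that hold V1 still (chr6:120795244-120822698, minus strand), ran from 169 through a median of 324 to 361 CPM in controls. In MSNBA libraries it ran from 335 through 369 to 407 CPM. In 4 MSNBA libraries it exceeded every control, and the low control was control 2. Its log2 fold change was 0.31 (SE 0.15). Subunit G of the same stalks, Atp6v1g1 (chr4:63544765-63550701, plus strand), had medians of 354 and 383 CPM, with ranges from 269 to 415 and from 268 to 413. The ranges nearly coincide, and the log2 fold change was 0.09 (SE 0.15). Atp6v1a, the catalytic subunit A that binds and splits ATP (chr16:44085402-44139702, minus strand), had medians of 167 and 172 CPM. Its controls ran from 85.6 to 208 and its MSNBA libraries from 134 to 247 CPM, and the log2 fold change between them was 0.02 (SE 0.20). Its 95% interval ran from -0.37 to 0.41.

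**Figure D1:**
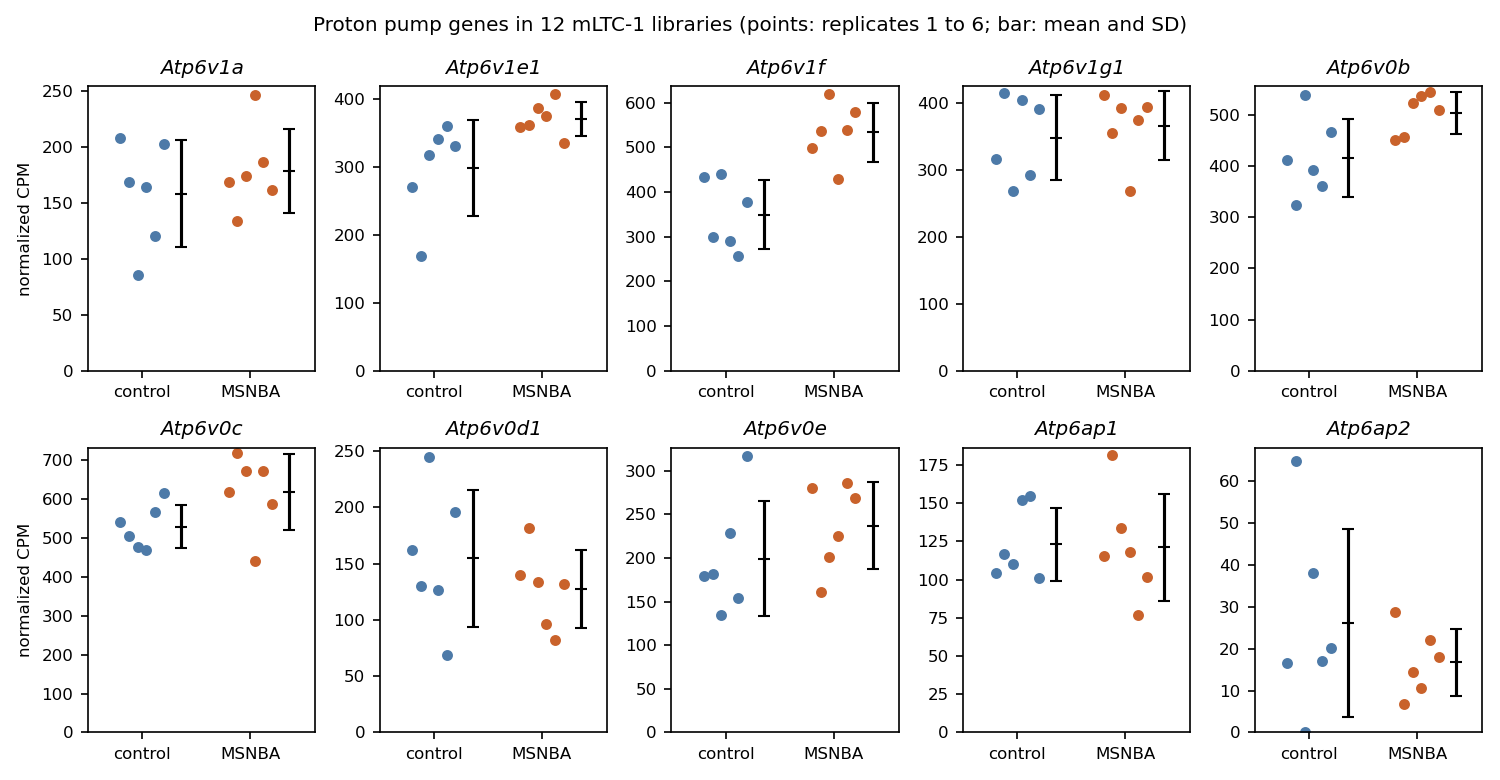
Normalized CPM (vertical axes, each from 0) of the 10 proton pump genes in 6 control and 6 MSNBA libraries, where each point is a library and each bar the mean ± SD. For Atp6v1f, 5 of 6 MSNBA points lie above all controls, and for Atp6v1g1 the groups nearly coincide.

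In V0, the ring is built from proteolipids that pass protons through the membrane. Its most common proteolipid, subunit c, is encoded by Atp6v0c (chr17:24163865-24169678, minus strand), which had the most counts of the 10 genes (1397). Controls ran from 469 through a median of 524 to 614 CPM, and MSNBA libraries from 440 through 645 to 718. MSNBA 4 was the lowest of all 12 libraries, while 4 MSNBA libraries were above every control. The log2 fold change was 0.21 (SE 0.13). Atp6v0b, the related proteolipid c″ (chr4:117884330-117887333, minus strand), ran from 324 through 402 to 538 CPM in controls. In MSNBA libraries it ran from 450 through 516 to 545 CPM, with 1 library above the highest control and 4 controls below the lowest MSNBA library. Its log2 fold change was 0.24 (SE 0.13).

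Atp6v0d1, subunit d, which couples the central stalk to the ring (chr8:105524461-105566064, minus strand), was the only tested gene of the 10 with a fitted value below 0. It ran from 68.7 through 146 to 244 CPM in controls and from 82.6 through 133 to 181 CPM in MSNBA libraries, so that the MSNBA range lay inside the control range. Its log2 fold change was -0.32 (SE 0.21). Subunit e, encoded by Atp6v0e (chr17:26676396-26699647, plus strand), is a small membrane protein of V0. It ran from 134 through 180 to 317 CPM in controls and from 161 through 247 to 286 in MSNBA libraries, with a log2 fold change of 0.21 (SE 0.19). The single highest level of this gene was in control 6.

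Of the accessory proteins, Atp6ap1 (Ac45; chrX:74297097-74304721, plus strand), which helps V0 to assemble and guides the pump in secretory cells, had medians of 113 and 117 CPM. Its ranges were 101 to 155 CPM in controls and 77.1 to 181 CPM in MSNBA libraries. Its log2 fold change was 0.03 (SE 0.22), while its means were 123 ± 24.0 and 121 ± 35.0 CPM (SD, n = 6 each). The fitted value and the means thus differ in sign, and both differences are far smaller than the spread between libraries. Atp6ap2, the (pro)renin receptor (chrX:12587759-12617051, plus strand), had 16 counts over the controls and 34 over the MSNBA libraries. Pooled, that is 23.5 CPM (exact Poisson 95% interval from 13.5 to 38.2) and 21.3 CPM (from 14.7 to 29.7). These intervals cover counting error only. Single libraries ran from 0 counts in control 3 to 20 counts in MSNBA 1, and a difference was not detectable at this depth.

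By edgeR, 0 of the 9 tested genes passed an adjusted p of 0.05, where 0.0765% of all tested genes did (2 of 2614). Atp6v1f alone had an unadjusted p under 0.05, against 8.95% of all tested genes (234). For 0 of the 9 genes did the groups lie fully apart, against 0.765% of all tested genes (20). Since the genes were chosen on this contrast, nothing is read from these counts. DESeq2 with its own filter on low counts called 1 of the pump genes, Atp6v1f (adjusted p = 0.0496), among 6 genes called of 19576 fitted. That filter left Atp6v0d1, Atp6v1a and Atp6ap1 without an adjusted p. Without a filter, edgeR called Atp6v1f too (adjusted p = 0.0320), among 15 genes called of 19576. In that fit the median log2 fold change of all genes tested in the main analysis was 0.14. limma-voom called 0 of the pump genes, and DESeq2 without its own filter 0 (adjusted p = 0.991 for Atp6v1f). Over all 22 alternatives, the adjusted p of Atp6v1f ran from 0.0320 to 0.991. The fitted log2 fold changes had a median of 0.21 over the 9 genes, with 8 above 0 and 1 below.

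**Figure D2:**
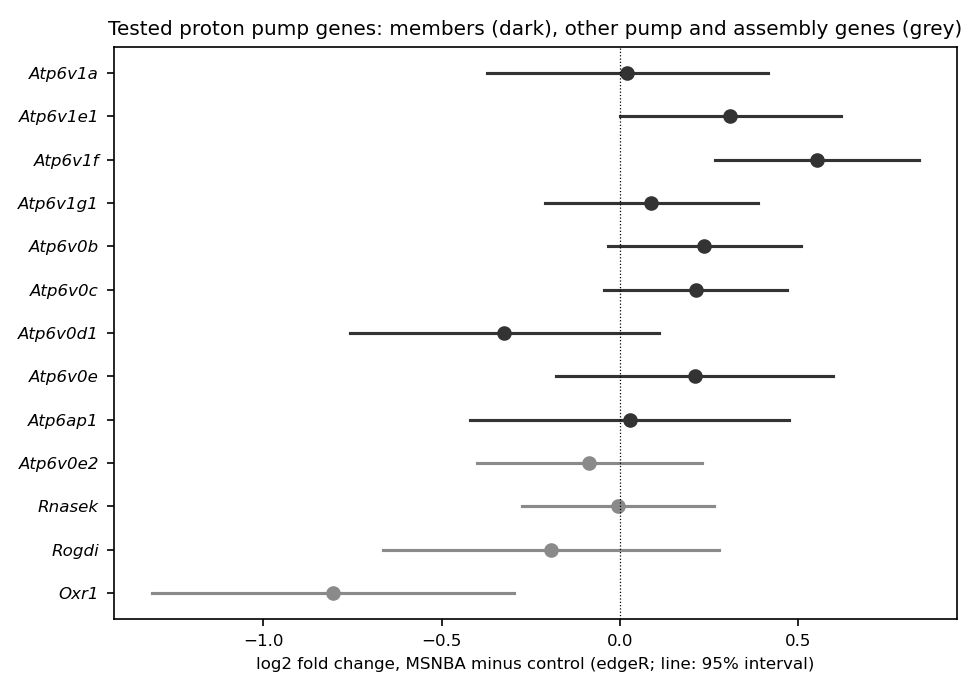
Log2 fold change of MSNBA against control (horizontal axis) with its 95% interval for the 9 tested pump genes described here (dark) and 4 other tested pump and assembly genes (grey). Of the dark intervals, only that of Atp6v1f, from 0.27 to 0.84, lies wholly above 0, and among the grey ones that of Oxr1 lies below it.

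Summed by sector, the 4 V1 genes gave 1155 ± 108 CPM in controls (SD, n = 6, from 1031 to 1303). In MSNBA libraries they gave 1450 ± 89.2 CPM (SD, n = 6, from 1319 to 1572). This sum holds Atp6v1f, which was chosen for being high in MSNBA libraries. Without it, the other V1 genes gave 805 ± 97.2 CPM (from 672 to 925) and 916 ± 45.0 CPM (from 853 to 969), and the groups overlapped. The 4 V0 genes summed to 1298 ± 173 CPM (from 1142 to 1593) and 1485 ± 98.3 CPM (from 1297 to 1585), also with overlap, control 6 being the highest library. The ratio of the V1 to the V0 sum was 0.895 ± 0.075 in controls (from 0.798 to 0.990) and 0.977 ± 0.042 in MSNBA libraries (from 0.916 to 1.03). Its numerator also holds Atp6v1f, and no ratio without that gene was computed, so nothing is read from it about the sectors. The sum over all 10 genes ran from 2353 to 3018 CPM in controls and from 2745 to 3250 CPM in MSNBA libraries. Control 6 was thus within the MSNBA range, and the other 5 controls were below it.

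The pump is built with tissue-specific isoforms at several positions, and mLTC-1 had the widely expressed form at nearly all of them. Over all 12 libraries, subunit E was counted 802 times as Atp6v1e1 and 4 times as Atp6v1e2. Subunit G was counted 870 times as Atp6v1g1, 5 times as Atp6v1g2 and 2 times as Atp6v1g3. Subunit d was counted 328 times as Atp6v0d1, while the osteoclast and kidney form Atp6v0d2 was at 0, which allows up to 1.32 CPM by a floor of 3 counts. The same held for subunits outside the 10 genes. Subunit B was counted 131 times as Atp6v1b2 and once as the kidney form Atp6v1b1. Subunit C was counted 92 times as Atp6v1c1 and 0 times as Atp6v1c2. Subunit a, which anchors the stalks and takes part in proton translocation, was the mixed position. It was counted 67 times as Atp6v0a1, 84 times as Atp6v0a2 and 62 times as Tcirg1 (a3), with 0 counts of the kidney form Atp6v0a4.

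Subunit e was the other mixed position. Atp6v0e had 547 counts and Atp6v0e2 916, and the ratio of their counts was 0.531 ± 0.211 in controls and 0.676 ± 0.220 in MSNBA libraries (SD, n = 6 each). Which form is the more abundant depends on length. Per kilobase of the longest coding transcript, Atp6v0e2 was at 2.63 times the level of Atp6v0e, and with the median length of the coding transcripts at 0.760 times. If molecules were counted by a tag at the 3′ end, which the sources used here do not settle, no division by length would apply.

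**Figure D3:**
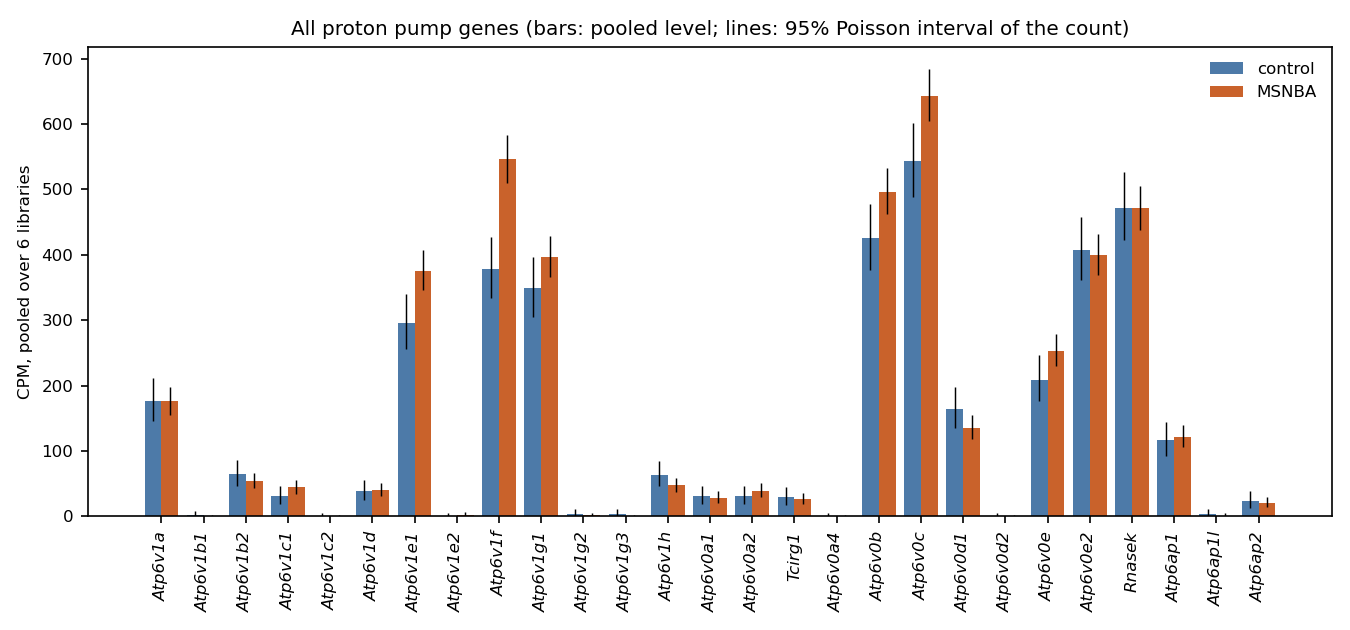
Pooled CPM (vertical axis) over the 6 control and the 6 MSNBA libraries for all pump genes, in the order V1, V0 and accessory, with exact Poisson 95% intervals as lines. The forms Atp6v1c2, Atp6v0a4 and Atp6v0d2 are at 0, and Atp6v0e2 stands above Atp6v0e.

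Of the 17 other pump genes listed, 14 had counts and 2 were tested: Atp6v0e2 and Rnasek, a small protein bound to V0. Their log2 fold changes were -0.09 (SE 0.16) and -0.01 (SE 0.13), with edgeR adjusted p of 0.910 and 0.994. Their median was -0.046, beside 0.21 for the 9 genes chosen here and -0.0082 for all tested genes. Atp6v0e2 had medians of 392 and 411 CPM and Rnasek of 461 and 483 CPM, which differ in sign from the fitted values. The means were 394 ± 96.4 and 369 ± 78.4 CPM for Atp6v0e2 (SD, n = 6 each). For Rnasek they were 471 ± 90.4 and 478 ± 38.2 CPM. These genes are counted as deeply as Atp6v0b and Atp6v1f. The remaining subunits of V1 had few counts: 91 for Atp6v1d, the other central stalk subunit and partner of subunit F, and 119 for Atp6v1h, the regulatory subunit H. The partner of Atp6v1f was therefore not tested, and the counting intervals of its pooled levels in both groups overlapped.

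Genes for the assembly of the pump were the Vma21 group, which builds V0 in the endoplasmic reticulum, the RAVE-like proteins (Dmxl1, Dmxl2, Wdr7 and Rogdi), which join V1 to V0, and the TLDc proteins, which take part in their separation. Of 11 listed, 10 were in the table and 2 were tested, and 0 passed by edgeR. Rogdi was at 96.7 ± 21.5 CPM in controls and 85.7 ± 20.5 CPM in MSNBA libraries (SD, n = 6 each), with a difference of -0.19 on the log2 scale (SE 0.23, edgeR adjusted p = 0.852). The TLDc gene Oxr1, known for resistance to oxidative damage, was at 93.8 ± 15.2 and 55.6 ± 17.0 CPM, a difference of -0.80 on the log2 scale (SE 0.25, edgeR adjusted p = 0.228). Its unadjusted p was under 0.05, as for 8.95% of tested genes.

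For comparison, the mitochondrial ATP synthase is the F-type relative of the pump. All 14 of its listed genes in the table were tested, 7 above and 7 below 0, with a median log2 fold change of -0.0081, and 0 passed by edgeR. By this description the ATP synthase genes lay at the median of all tested genes, and the chosen pump genes above it. Both sets were chosen with earlier results of these data known, and the distance between their medians is no test.

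Levels of different genes were compared per kilobase of the longest coding transcript, over the 6 controls. The order began with Atp6v0c at 447 ± 47.5 CPM per kilobase, Atp6v1f at 434 ± 96.8 and Atp6v0b at 416 ± 76.6 (SD, n = 6 each). Then came Atp6v1g1 at 307 ± 55.8 and Atp6v1e1 at 227 ± 53.7. The lower part held Atp6v0d1 at 94.9 ± 37.5, Atp6v0e at 70.8 ± 23.4, Atp6ap1 at 56.2 ± 10.9, Atp6v1a at 37.4 ± 11.2 and Atp6ap2 at 11.3 ± 9.68 CPM per kilobase. The control ranges of each pair of neighbours in this order overlapped. Those of Atp6v1e1, from 129 to 275, and Atp6v0d1, from 42.2 to 150 CPM per kilobase, did so only through the lowest library of the former and the highest of the latter. The same held for Atp6v1a, from 20.2 to 49.2, and Atp6ap2, from 0 to 27.9 CPM per kilobase. With the median length in place of the longest, Atp6v0c stayed first and Atp6ap2 last. The largest move was that of Atp6v0d1, from place 6 to place 9. The catalytic subunit gene Atp6v1a was at place 9 by the longest and at place 7 by the median length. If molecules were counted by a tag at the 3′ end, no division by length applies, and this order would not hold.

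Atp6v0c has a copy in the genome, the pseudogene Atp6v0c-ps2 at chr6:37805975-37807107. Over 465 aligned bases of their GENCODE transcripts, 464 were identical (99.8%), and the longest identical run was 354 bases. The Atp6v0c transcript has 1183 bases and the RefSeq pseudogene locus 1133, and the rest of either was not compared. The stretch with the single difference is shown because it is the only place in this alignment where a read could tell the copies apart. The differing base is in capitals, and the stretch covers bases 81 to 140 of the pseudogene transcript.
Atp6v0c: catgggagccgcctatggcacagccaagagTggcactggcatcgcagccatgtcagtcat
Atp6v0c-ps2: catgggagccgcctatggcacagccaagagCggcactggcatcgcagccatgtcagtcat
The pseudogene symbol had 312 counts beside 1397 for Atp6v0c. Its share of their sum was 18.9 ± 4.03% in controls (from 15.2 to 24.5%) and 17.0 ± 2.09% in MSNBA libraries (from 14.0 to 20.6%, SD, n = 6 each), with overlap. Its log2 fold change was 0.13 (SE 0.21, edgeR adjusted p = 0.896). How reads that match both copies were assigned or dropped is not given in the sources used here. The level of Atp6v0c is therefore uncertain, by an amount that these counts do not show. Reads of overlapping genes cannot be told apart either where counting did not use strand, but Gm12841, Gm19245 and Gm38592, which overlap Atp6v0b, Atp6v1e1 and Atp6v1g1, had 0 counts.

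The variation of the pump genes across libraries was compared pair by pair. Over 36 pairs of the 9 tested genes, the Pearson r of log2 CPM with group means removed had a median of 0.0050 (middle 50% from -0.17 to 0.17). Over all pairs of genes with a mean of at least 20 counts, the median was -0.0018 (middle 50% from -0.26 to 0.26). With group means kept, the pump pairs had a median of 0.086 with 63.9% above 0, and all pairs a median of -0.0013 with 49.9% above 0. The difference between MSNBA and control on which the genes were chosen enters that value. The mean count per library ran down to 22.8 for Atp6ap1, and the part of counting noise in these values was not tested. All these correlations share the depth and scaling of the same 12 libraries and are given as a description. The highest r over the 12 libraries was that of Atp6v1f with Atp6v0b, at 0.77 (Spearman rho 0.59). It was 0.78 within the controls and -0.096 within the MSNBA libraries, and 0.67 without the 2 libraries farthest from the median. Atp6v1f and Atp6v0d1 had an r of 0.75 with group means removed, although their fold changes had opposite signs. It was 0.89 within the controls and 0.34 within the MSNBA libraries. With group means kept, their r over the 12 libraries was 0.26, and -0.19 without the 2 libraries farthest from the median of Atp6v1f. The r with group means removed was not computed without those 2 libraries. Over the 12 libraries, Atp6v0e and Atp6v1a had an r of 0.65, and Atp6v0e and Atp6ap1 one of -0.54, the lowest of the 36 pairs. The first was 0.74 within the controls and 0.36 within the MSNBA libraries, and 0.41 without the 2 libraries farthest from the median of Atp6v0e. The second was -0.22 within the controls and -0.89 within the MSNBA libraries, and -0.68 without those 2 libraries.

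**Figure D4:**
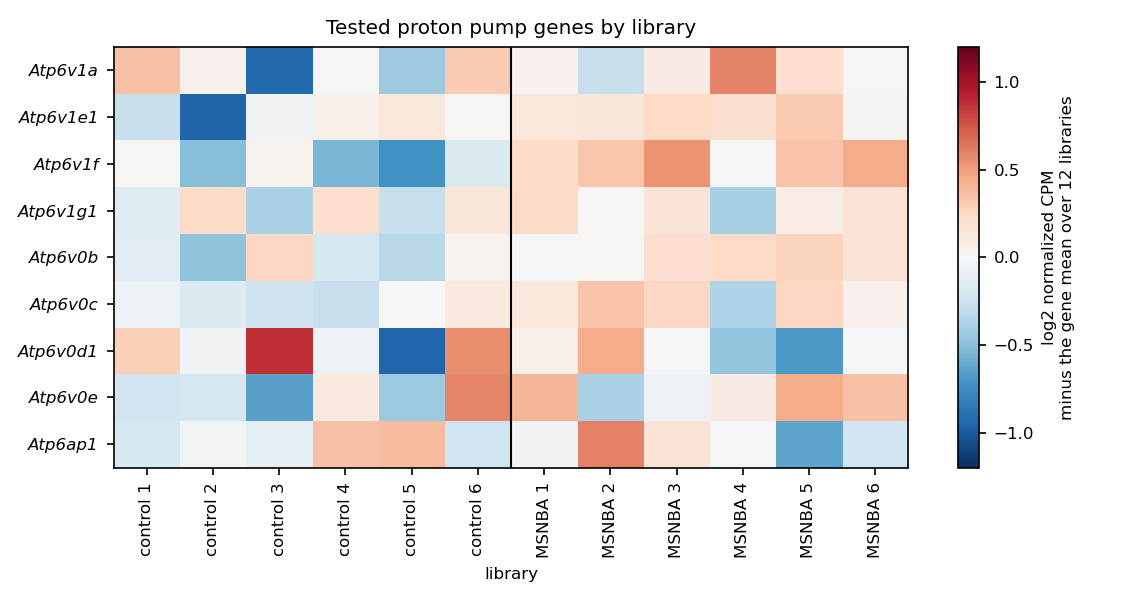
Log2 normalized CPM of the 9 tested pump genes (rows) in the 12 libraries (columns), each minus the gene's mean over the libraries, with red above and blue below that mean. Atp6v1f is blue in controls 2, 4, 5 and 6 and red or near white in all MSNBA libraries, while Atp6v0d1 and Atp6ap1 hold both colours in both groups.

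The genes most like the pump genes were sought among 1633 tested genes outside the lists with a mean of at least 20 counts. The measure was the Pearson r over 12 libraries with the mean centred log2 CPM of the 9 genes. The highest were Pam16 (r = 0.90, a part of the mitochondrial import motor), Eif3d (0.90, a translation initiation factor) and Lsm7 (0.89, an RNA-binding protein of the spliceosome and of mRNA decay). Elovl5 (0.85, elongation of polyunsaturated fatty acids), Aldh1l1 (0.84, folate metabolism) and Csnk2b (0.82, the regulatory subunit of casein kinase 2) followed. Within the MSNBA libraries alone, r ran from 0.24 for Csnk2b to 0.91 for Eif3d, and within the controls from 0.73 for Aldh1l1 to 0.93 for Elovl5. Without the 2 libraries farthest from the median, r ran from 0.52 for Aldh1l1 to 0.76 for Pam16. The measure keeps the difference between MSNBA and control on which the 9 genes were chosen, and it can favour genes that share that difference. The log2 fold changes of the genes named here were all above 0, from 0.20 for Elovl5 to 0.67 for Aldh1l1. These genes are the highest of many, and their likeness is a description.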

How the data were processed

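PolyA RNA of 12 mLTC-1 libraries was measured, and the authors deposited raw counts per gene symbol in 1 table. BWA 0.7.4.4 and mm10 are the tool and the build in the submitters' processing notes. How reads were counted, on which annotation and with what strand setting is not given in the sources used here, and the table's name reads as uniquely aligned, with molecular identifiers. Groups were taken from the labels. The order of the table's columns reads as 3 sets of 4 libraries, in which the middle set holds controls 2 and 4 with MSNBA 3 and 5, whereas the labels give 2 groups of 6. The order was used in no test, and every difference rests on the labels.

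Genes were filtered by filterByExpr, scaled by TMM and tested by the edgeR 4.0.16 robust quasi-likelihood F test (R 4.3.3), two-sided, with Benjamini-Hochberg adjustment over 2614 genes and a threshold of 0.05. An SE was taken as the absolute log2 fold change divided by the root of F. Normalized CPM are counts per 1000000 of the library total times its TMM factor. Pooled CPM, list sums and floors use full totals (679637 control and 1598286 MSNBA counts) without that factor. Correlations used log2 CPM with a prior count of 2. Gene positions are from RefSeq (GRCm38.p6), and transcript lengths from GENCODE vM21.

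The 10 genes and all lists were chosen with earlier results of these data known. The rule named all 10 genes, members of the lists where a value is given, and the 6 genes most like the 10. The pseudogene and single list members were named after their values were seen. Alternatives were RLE factors, library size alone, DESeq2 1.42.0, limma-voom (limma 3.58.1), no filter, a filter of 20 counts in 6 libraries, a replicate block, log2 total as a covariate, controls 2 and 4 left out (chosen from an earlier look at these data), and each library left out. DESeq2 without its own filter and the median transcript length were added after the data were seen. Values of 1 listed gene are not reported here.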

Additional observations from a re-analysis of the deposited data

How the results depend on the processing

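Low counts limited which genes could be tested, and Atp6ap2 with 15 of the 17 other pump genes could not be. Controls held fewer counts in all than MSNBA libraries, though control 1 held more than MSNBA 2, 4, 5 or 6. The parts of depth and of low expression in this were not tested. By edgeR 2 genes of 2614 passed. DESeq2 gave 6 of 19576 genes fitted, no filter 15 of 19576, and limma-voom 0. The stricter filter gave 1 (it tested 1319 genes) and the depth covariate 0. Leaving out controls 2 and 4 gave 7 of 3076, and DESeq2 without its own filter gave 0. With 1 library left out the count ran from 0 to 5: it was 0 without control 4, 5 or 6 or MSNBA 1, 2, 3, 5 or 6, 1 without control 3, 3 without control 2, 4 without MSNBA 4 and 5 without control 1. The labels do not say whether replicate numbers pair the libraries. Same-number correlations of residuals ran from -0.23 to 0.48, with 3 of 6 pairs over 0.1, which does not settle it. A fit with the replicate number as a block called 3 genes. Of the pump genes, 1 was called by DESeq2 and 1 without a filter (Atp6v1f in both), and 0 under every other alternative. Over the 9 genes the log2 fold changes had a median of 0.35 with no filter, where the median of all genes tested in the main analysis moved from -0.0082 to 0.14, and that of Atp6v0e2 and Rnasek was 0.10 there. It was 0.12 with the depth covariate and ran from 0.12 to 0.26 with 1 library left out. Signs near 0 turned. Atp6v1a was at -0.056 with the depth covariate and from -0.087 (without control 3) to 0.15 (without control 1) with 1 library left out. Atp6v1g1 was at -0.0079 with the depth covariate. Atp6ap1 was at -0.013 by limma-voom and ran from -0.079 (without MSNBA 2) to 0.11 (without MSNBA 5). Atp6v1f kept its sign in all 22 alternatives, from 0.44 to 0.69. The cause of these moves was not tested.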

Other observations

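Genes around the pump were measured as well. Of 14 listed genes of nutrient signalling on the lysosome, 5 were tested, 3 above and 2 below 0, with a median log2 fold change of 0.093, and 0 passed by edgeR. Lamtor1, a subunit of the Ragulator complex that binds the pump, had the highest fold change of the 5. It was at 102 ± 17.9 CPM in controls and 129 ± 18.4 CPM in MSNBA libraries (SD, n = 6 each). Its log2 fold change was 0.32 (SE 0.21, edgeR adjusted p = 0.639). The other tested Ragulator subunits, Lamtor2, Lamtor4 and Lamtor5, were at 0.09 (SE 0.19), -0.05 (SE 0.23) and 0.14 (SE 0.24). Of 8 listed genes for ion transport in endosomes and lysosomes, Clcn7 and Clcn3 were tested. Their log2 fold changes were 0.04 (SE 0.24) and -0.03 (SE 0.20). The transcription factors Tfeb, Tfe3 and Mitf had 14, 82 and 10 counts, and the calcium channel Mcoln1 had 62, too few to be tested.

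Of 6 receptors that depend on endosomal acid to release their cargo, 5 were tested, 3 above and 2 below 0, with a median of 0.22, and 0 passed by edgeR. The 2 below 0 were the transferrin receptor Tfrc, at -0.25 on the log2 scale (SE 0.18), and Lrp1, at -0.34 (SE 0.22). They do not stand for the list, since the other 3 lay above 0.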
